A study of Rattus with 12 samples.

Results

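The genes examined were Mgp, Dcn, Lum, Fn1, Postn, Igf2, Bgn, Ogn and Pdgfrb, 9 of the 17337 gene symbols of a count table of rat brain cultures. They were chosen by symbol as genes of fibroblast-like cells, with their levels in these same cultures known, and 2 cultures named G and N were to be shown apart. What these genes did in G and N against the other cultures is therefore a description with no test. All 9 symbols had counts, and 8 passed the filter on low counts. Lum did not pass, so its counts are given with no test of dose.

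The cultures were Sprague Dawley rat cells, seeded from commercial cortical neurons, astrocytes and oligodendrocyte precursor cells (OPCs). At 24 to 26 days in vitro they received no fentanyl (untreated), 0.01 µM fentanyl (low dose) or 10 µM fentanyl (high dose), an opioid agonist, for 4 days, with 4 cultures per condition. Poly(A)-enriched RNA was sequenced and counted per gene. No genetic change or further agent was named for any condition, and fibroblasts were not among the cells seeded. Each culture carries a letter, and the letters form 4 runs of consecutive letters with 1 culture of each dose, from untreated to high dose: A to C, G to I, M to O and P to R. A run is called a letter set and is written by its letters, such as A-B-C. What the letters stand for is not given in the sources used here.

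As background, fibroblasts of the meninges and of vessel walls secrete a matrix of fibrillar collagen, and most of these genes encode proteins that lie in or on that matrix. Fibronectin (Fn1) and periostin (Postn) are glycoproteins that cells hold through integrins. Decorin (Dcn), lumican (Lum), biglycan (Bgn) and osteoglycin (Ogn) are small leucine-rich proteoglycans, a family that binds collagen fibrils and growth factors. Matrix Gla protein (Mgp) is a vitamin K-dependent inhibitor of calcification that also binds bone morphogenetic proteins, Igf2 is a secreted growth factor, and Pdgfrb is the receptor for PDGF-BB on mural cells and fibroblasts. Several of them are also made outside fibroblasts, for example Mgp in vessel walls and cartilage and Pdgfrb in pericytes.

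Total counts per culture lay between 12059872 and 17023909 in the untreated, 12907388 and 16512387 in the low dose and 15102785 and 24813893 in the high dose condition. Levels are given as CPM, each count relative to the scaled total of its culture. They are compared between cultures, for 1 gene or for the sum of a list. Gene lengths were not used, so levels of different genes are not comparable. Genes with more reads weigh more in the sums and in the choice of genes named by level. A count of 3 was taken as the floor of what the depth can show, which corresponded to 0.124 to 0.249 CPM and covers counting error only. Untreated culture G stood apart from the other 11 cultures in its neuron markers. Its 8 neuron markers summed to 224 CPM, against 2475 to 3802 CPM in the 10 cultures other than G and N and 2638 CPM in N. All 8 of these markers were lowest in G. In RNA of whole cultures, fewer cells of a type and less RNA per cell cannot be told apart.

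**Figure D1:**
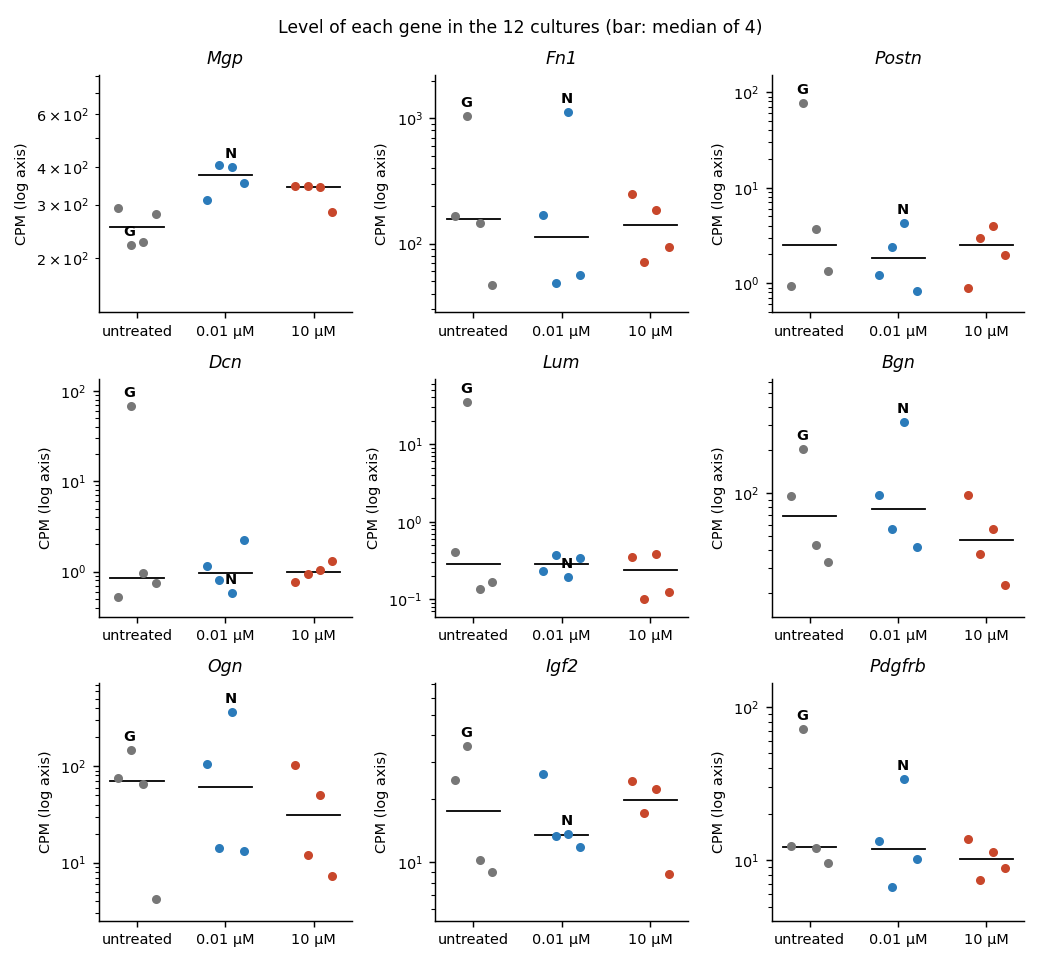
Level of each gene (vertical log axis, CPM) in the 4 cultures of each condition, with G and N marked and a bar at the median of 4. G and N lie far above the other cultures for Fn1, only G does for Dcn, Lum and Postn, and for Mgp the 4 low dose cultures lie above the 4 untreated ones.

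Mgp did not share the pattern of the other genes. Its level was 293, 220, 226 and 279 CPM in untreated cultures A, G, M and P. It was 311, 404, 400 and 354 CPM in low dose cultures B, H, N and Q, and 345, 345, 342 and 283 CPM in high dose cultures C, I, O and R. The 4 low dose cultures all lay above the 4 untreated ones, and 3 of the 4 high dose cultures lay above the highest untreated one. Culture G had the lowest level of the 12 and N the second highest, so the cultures in which most of the other genes were highest held the lowest and nearly the highest Mgp.

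The means of Mgp were 254 ± 36.8 CPM in the untreated, 367 ± 44.1 CPM in the low dose and 329 ± 30.4 CPM in the high dose condition (SD, n = 4 each). The separation of low dose from untreated was seen, in the same direction, for 24 of the 12271 genes tested (0.196%). Mgp also kept it with G and N left out, where 144 genes did (1.17%). Within each letter set, log2(CPM + 1) of Mgp was higher at low dose than untreated by 0.09, 0.88, 0.82 and 0.34, in alphabetical order of the sets. A gene was higher in all 4 sets for 4.06% of the genes tested. The high dose culture was higher than the untreated one in each set as well, by 0.24, 0.65, 0.60 and 0.02, as 5.22% of the genes tested were. Mgp was chosen with its levels in these cultures known. These shares, and the p values of Mgp below, therefore describe it and are no independent evidence of a dose effect.

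In edgeR's quasi-likelihood fit over all genes, the log2 fold change of Mgp was 0.50 (SE 0.13) for low dose vs. untreated and 0.35 (SE 0.13) for high dose vs. untreated. The unadjusted p values from edgeR were 0.00341 and 0.0253, and the adjusted p was 1 in both, so Mgp was not called. An unadjusted p under 0.05 was reached by 90 of the 12271 genes (0.733%) for low dose and by 146 (1.19%) for high dose vs. untreated. Of the 8 genes tested here, Mgp was the only one among them in either comparison. Between high and low dose its log2 fold change was -0.16 (SE 0.13), smaller than 2 SE. These directions were kept in all 21 alternative fits of each comparison, from 0.34 to 0.59, from 0.26 to 0.43 and from -0.23 to -0.08.

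Fn1, which encodes fibronectin, was high in both G and N. It stood at 167, 1047, 147 and 47.2 CPM in untreated cultures A, G, M and P, at 170, 48.5, 1117 and 56.5 CPM in low dose cultures B, H, N and Q, and at 249, 71.3, 186 and 94.3 CPM in high dose cultures C, I, O and R. G was 8.68-fold and N 9.27-fold above the median of the other 10 cultures, which themselves spread 5.28-fold. The condition means were 352 ± 466 CPM untreated, 348 ± 516 CPM at low dose and 150 ± 82.4 CPM at high dose (SD, n = 4). Without G and N the untreated and low dose means were 120 ± 64.0 and 91.8 ± 68.1 CPM (SD, n = 3).

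Postn, a matricellular protein of collagen-rich tissue, was by far highest in G. Its level was 76.5 CPM in G (1180 counts), 46.2-fold above the median of the 10 other cultures, which ranged from 0.825 to 3.93 CPM. N had 4.31 CPM, just above the highest of these. The other untreated cultures A, M and P had 0.944, 3.70 and 1.33 CPM, low dose cultures B, H and Q had 1.23, 2.41 and 0.825 CPM, and high dose cultures C, I, O and R had 0.889, 3.01, 3.93 and 1.98 CPM. Fibronectin and periostin messages parted between the pair of cultures, with Fn1 at a ratio of 1.07 in N to G and Postn at a ratio of 0.0563.

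The proteoglycans split in the same way. Dcn was at 0.531, 68.3, 0.96 and 0.748 CPM in untreated cultures A, G, M and P, at 1.15, 0.803, 0.587 and 2.27 CPM in low dose cultures B, H, N and Q, and at 0.770, 0.953, 1.03 and 1.32 CPM in high dose cultures C, I, O and R. N was below 0.956 CPM, the median of the 10 cultures other than G and N. Lum was at 34.8 CPM in G and at 0.10 to 0.413 CPM in the 10, with 0.196 CPM in N. In counts, Dcn had 1053 in G and 9 to 33 in each of the other 11, and Lum had 537 in G and 2 to 7 in the other 11, of which 6 were at or under the floor of 3 counts. Pooled over the other 11 cultures, Lum was 139-fold lower than in G (95% exact conditional interval 102 to 192, counting error only). Dcn and Lum are next to each other in the RefSeq gene order of the rat assembly GRCr8, and Kera and Epyc, which follow them, had 0 counts in G and N.

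Bgn and Ogn were high in both cultures and highest in N. Bgn was at 95.5, 202, 43.3 and 32.7 CPM in the untreated, 97.3, 55.8, 316 and 41.5 CPM in the low dose, and 97.1, 37.6, 55.5 and 22.7 CPM in the high dose condition, in the order of letters used for Fn1. G was 4.09-fold and N 6.40-fold above the median of the other 10. Ogn was at 75.4, 146, 66.0 and 4.16 CPM, then 106, 14.3, 364 and 13.1 CPM, then 102, 12.03, 50.0 and 7.19 CPM. N was 11.3-fold and G 4.53-fold above the median, but the other 10 cultures already spread 25.5-fold, and G was 1.37-fold above the highest of them. The low Ogn levels all fell in sets G-H-I and P-Q-R.

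Igf2, the growth factor, differed less. It was at 24.6, 35.4, 10.2 and 8.98 CPM in the untreated, 26.2, 13.3, 13.6 and 11.8 CPM in the low dose and 24.3, 17.1, 22.4 and 8.81 CPM in the high dose cultures. G was 2.32-fold above the median of the other 10 but only 1.35-fold above their highest, and N was inside their range at 0.895 times the median. Cultures A, B and C lay within 24.3 to 26.2 CPM and were above all of H, I, M, O, P, Q and R.

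Pdgfrb, the one receptor among the genes, was at 71.9 CPM in G and 34.1 CPM in N, against 6.73 to 13.7 CPM in the other 10 cultures. These were 12.3, 12.1 and 9.65 CPM in A, M and P, 13.4, 6.73 and 10.2 CPM in B, H and Q, and 13.7, 7.47, 11.4 and 8.89 CPM in C, I, O and R. G was 6.64-fold and N 3.15-fold above the median of the 10. No other gene of the 9 with a raised level in both cultures varied as little among the rest, whose highest value was 2.04 times their lowest.

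**Figure D2:**
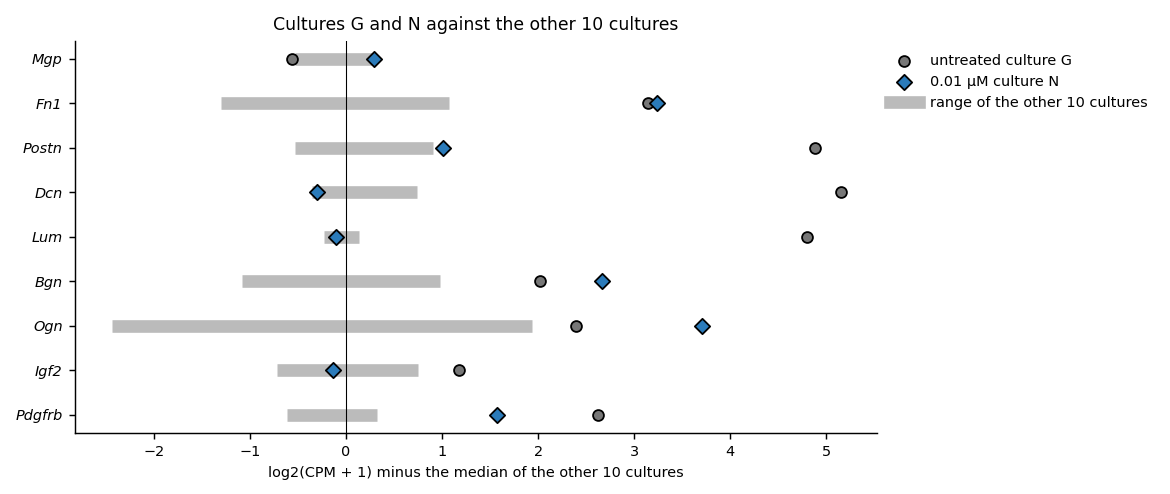
Difference of G (grey circles) and N (blue diamonds) from the median of the other 10 cultures, on the log2(CPM + 1) scale, with the range of these 10 as a grey bar. Dcn, Lum and Postn are 4.80 to 5.15 higher in G and at most 1.01 higher in N, where Postn is just above the bar. Fn1, Bgn, Ogn and Pdgfrb are above the bar in both.

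Among the 8 genes tested, Dcn, Postn, Igf2 and Pdgfrb were highest in G, as 27.7% of all genes tested were, and Fn1, Bgn and Ogn were highest in N, as 4.42% were. For 5 of the 8, G and N were the 2 highest cultures, against 8.4% of all genes. A level over 2-fold above the median of the other 10 was reached by 7 of the 8 in G (11.4% of all genes) and by 5 of the 8 in N (4.18% of all genes). Nothing can be read from these counts about the genes, which were picked with these levels known.

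Markers fixed by cell type gave the setting of the 2 cultures. The 22 fibroblast identity genes found in the table, which hold none of the 9 genes, summed to 1800 CPM in G and 3074 CPM in N, against 137 to 577 CPM in the other 10. Of the 12 that were tested, 9 were highest in G (27.7% of all genes) and 3 in N (4.42%). A level over 2-fold above the median of the other 10 was reached by 9 of the 12 in G (11.4% of all genes) but by 4 in N (4.18%). The sum in N rested mainly on Col1a1, Col1a2 and Mfap4. Col1a1 and Col1a2, the chains of type I collagen, were at 502 and 691 CPM in G and at 1265 and 1359 CPM in N, with 3.83 to 214 and 48.1 to 246 CPM in the other 10. Mfap4, a microfibril-associated protein, was at 281 CPM in N but 28.5 CPM in G, inside the 11.2 to 37.7 CPM of the other cultures. S100a4 was at 82.4 CPM in G and 38.3 CPM in N, with 19.6 to 46.6 CPM in the others.

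Genes of the leptomeninges, the inner membranes that cover the brain, were highest in G as a sum, like Dcn, Lum and Postn. Unlike Dcn and Lum, their sum was also above the other 10 cultures in N. The 11 in the table summed to 324 CPM in G, 36.2 CPM in N and 4.37 to 15.3 CPM in the other 10. Slc13a4, a sulfate transporter, was at 68.6 CPM in G and 24.9 CPM in N, with at most 5.90 CPM elsewhere. Crabp2 was at 62.3 CPM in G against 8.55 CPM in N and Zic1 at 25.6 against 1.31 CPM. Chosen after their values were seen, the transporter Slc6a13 had 617 counts in G and 0 in N, Foxc1, a transcription factor of the meninges, had 483 and 8, and Lama1, a laminin chain, had 857 and 5. A count of 0 in N allows up to 0.196 CPM. Of the transcription factors in the fibroblast identity list, chosen after their values were seen, Tbx18 and Foxd1 had 143 and 97 counts in G and 0 in N, and Tbx15 had 50 in G and 134 in N.

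Of the 4 mural cell genes named by level, Acta2 and Tagln were higher in N than in G and Myh11 and Mcam were not. Acta2, smooth muscle actin, was at 109 CPM in N and 1.23 CPM in G, and Tagln was at 181 CPM in N and 10.6 CPM in G, although the other cultures ranged up to 16.1 CPM for Acta2 and 605 CPM for Tagln. Myh11, smooth muscle myosin, was at 23.3 CPM in G and 11.3 CPM in N, and Mcam at 135 and 93.3 CPM, all inside the range of the other 10. The 13 mural cell genes summed to 414 CPM in N, 227 CPM in G and 177 to 694 CPM in the other 10. Chosen after their values were seen, Rgs5 and Kcnj8, which mark pericytes, had at most 14 counts in any culture. Rgs5 had 6 counts in G, 2 in N and 0 to 14 in the rest. Kcnj8 was highest in G, with 14 counts there, 4 in N and 1 to 7 in the rest. Anpep of the same list, chosen likewise, was at 48.1 CPM in G and 5.55 CPM in N against 0.249 to 5.42 CPM. Of the 8 mural cell genes tested, 1 was over 2-fold above the median of the other 10 in G (11.4% of all genes) and 2 were over 2-fold below it. In N, 4 of these 8 were over 2-fold above that median (4.18% of all genes) and 0 were over 2-fold below it. The 13 endothelial genes summed to 79.8 CPM in G, 40.5 CPM in N and 15.1 to 47.1 CPM in the rest. Kdr, a VEGF receptor, was at 12.7 CPM in G and 2.81 CPM in N against 1.73 to 5.69 CPM, whereas Esam, Vwf and Plvap were lower in G than in N and inside the range of the other 10 in both. Of the 8 endothelial genes tested, 3 were over 2-fold above the median of the other 10 in G (11.4% of all genes) and 1 was over 2-fold below it. In N, 1 was over 2-fold above that median (4.18% of all genes) and 0 were over 2-fold below it. Chosen after their values were seen, Cdh5 had 439 counts in G, 2 in N and 0 to 8 in the rest, and Flt1 had 237, 1 and 1 to 35.

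The seeded cell types and microglia were measured in the same way. Astrocyte markers summed to 5881 CPM in G and 2531 CPM in N (1520 to 9019 CPM in the other 10), OPC markers to 1287 and 738 CPM (267 to 1254 CPM), and oligodendrocyte markers to 6773 and 9675 CPM (2925 to 25440 CPM). Microglia markers summed to 442 CPM in G and 644 CPM in N, against 16.4 to 442 CPM in the other 10. Of the 7, 6 were highest in N, as 4.42% of all genes were. The part of these cell types in the levels of the matrix genes was not tested.

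**Figure D3:**
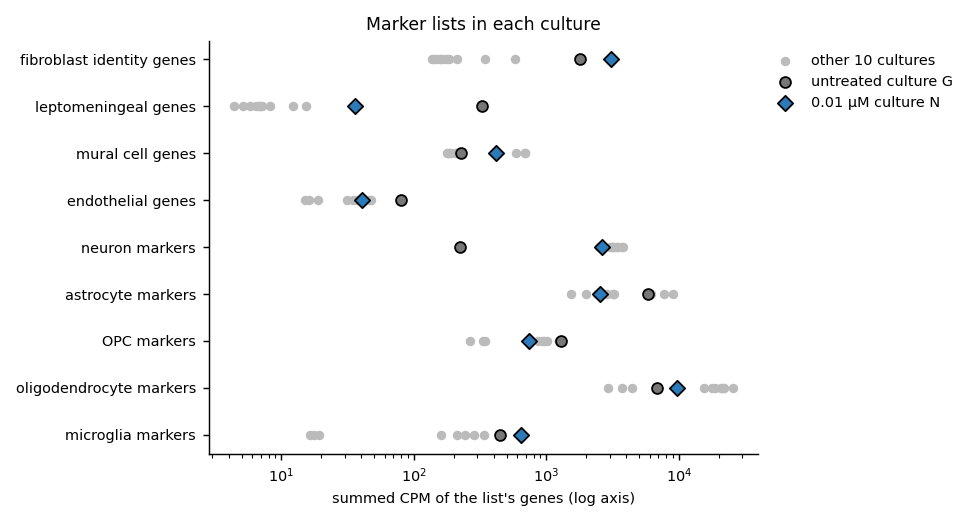
Summed level of 9 marker lists (horizontal log axis, CPM) in G (dark circles), N (blue diamonds) and the other 10 cultures (light circles, some hidden behind the marked ones). Neuron markers are low in G alone, leptomeningeal genes are highest in G, and fibroblast identity genes are higher in G and N than in each of the other 10.

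Outside G and N, the matrix genes other than Mgp and Dcn varied with the letter set more than with dose. Over the 10 cultures, the letter set accounted for 95.5% of the variance of log2(CPM + 1) of Pdgfrb, 94.5% of Ogn, 88.5% of Postn, 87.1% of Bgn, 86.5% of Fn1 and 77.2% of Igf2. The median over all genes tested was 78.6%, so this was no more than most genes showed for Igf2. Dcn and Lum, at counts of 2 to 33, had 32.8% and 17.9% by letter set and 33.8% and 9.43% by dose. Since the sets of G and N each lack a culture here, shares by set and by dose overlap and do not add up. The order of the sets differed by gene. Ogn, Bgn and Igf2 were highest in A-B-C, and Postn was higher in G-H-I and M-N-O than in A-B-C and P-Q-R. For Mgp, dose accounted for 58.2% of the variance over the 10 cultures and 67.8% over all 12, with a median of 9.63% and 8.70% over all genes. The letter set accounted for 38.9% of the variance of Mgp over the 10 cultures and 0.657% over the 12.

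**Figure D4:**
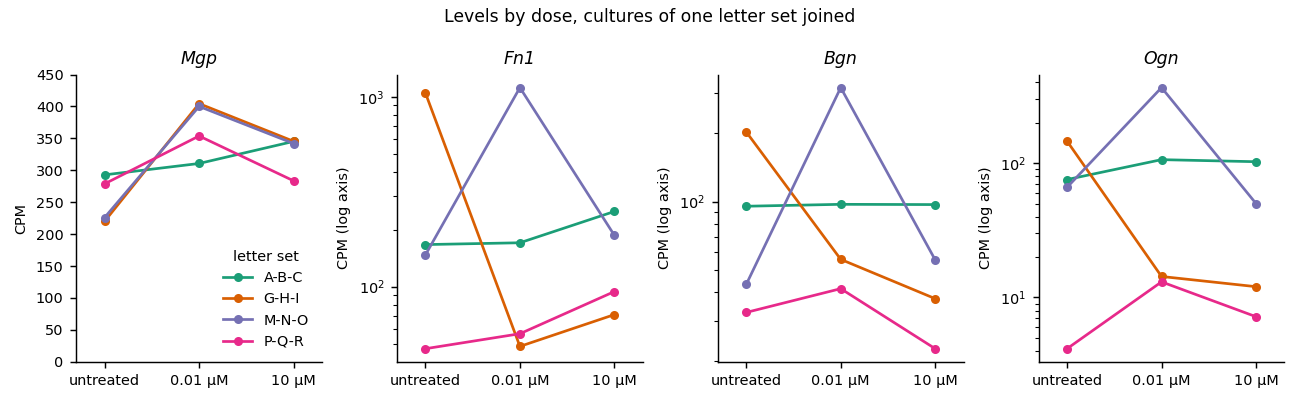
Level of Mgp (linear axis, CPM) and of Fn1, Bgn and Ogn (log axes, CPM) by condition, with cultures of 1 letter set joined by a line. Mgp is higher at low dose than untreated in all 4 sets, and the peaks of Fn1, Bgn and Ogn are culture G in set G-H-I and culture N in set M-N-O.

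Dose was compared over all 12 cultures in a fit with 1 factor of unwanted variation, in which calling a gene took a log2 fold change beyond 0.5 and an adjusted p under 0.05. None of the 8 genes was called in any of the 3 comparisons between doses, and none of the 12271 genes tested was (0%, 0% and 0%). DESeq2 called 0, 3 and 1 genes of all tested, in the order low dose and high dose vs. untreated and high vs. low dose, none of them among the 8. An unadjusted p under 0.05 by edgeR was reached by 1, 1 and 0 of the 8, the 1 being Mgp, and by 143 of all genes (1.17%) for high vs. low dose. The shares of all genes, 0.733%, 1.19% and 1.17%, were below the fraction of 0.05 that well-calibrated p values give without any effect. A gene not called in this fit is therefore no evidence that dose left it unchanged.

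For low dose vs. untreated, the log2 fold changes of the genes highest in N were 0.90 (SE 0.78) for Fn1, 0.85 (SE 0.61) for Bgn and 1.10 (SE 1.15) for Ogn. With low dose culture N left out they were -0.46, 0.07 and -0.16. The others were 0.23 (SE 0.76) for Dcn, -0.29 (SE 0.36) for Postn, 0.01 (SE 0.45) for Igf2 and 0.16 (SE 0.35) for Pdgfrb. Pdgfrb was also raised in N, and its value ranged from -0.24 to 0.44 with 1 culture at a time left out. The median over the 8 genes was 0.37, against 0.01 over all genes, and it was -0.05 without N. Intervals by the normal approximation, at a nominal 95%, were wide, from -1.16 to 3.35 for Ogn and from -0.63 to 2.43 for Fn1. With so few cultures they are narrower than true 95% intervals.

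For high dose vs. untreated, 5 of the 8 genes had a log2 fold change below 0 and the median was -0.12. The values ran from -0.34 (SE 0.35) for Pdgfrb to 0.35 for Mgp. Culture G carried the extreme untreated level of most of these genes, and the fitted factor was 2.95 in G and between -0.72 and 0.49 in the other 11 cultures. With no factor the log2 fold change was -4.10 for Dcn and -3.07 for Postn, against -0.24 and -0.07 with it. With G left out they were 0.51 and 0.28.

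Fn1 was the 1 gene whose call depended on the fit. With letter sets as a block and G and N left out, a fit over 10 cultures, Fn1 rose at high dose vs. untreated by 0.63 (SE 0.10) on the log2 scale at an adjusted p of 0.0257 in edgeR, and 88 of the 12302 genes tested there were called. Its difference in log2(CPM + 1), high dose minus untreated, was -3.86 in G-H-I, where the untreated culture is G, and 0.58, 0.34 and 0.98 in the sets that begin with A, M and P. High vs. low dose in that fit had a log2 fold change of 0.57 and an adjusted p of 0.0563, which missed the threshold. No source states that the letters pair the cultures.

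For high vs. low dose, Bgn and Ogn were lower at high dose in all 4 letter sets, as 11.1% of the genes tested were. The differences in log2(CPM + 1) were 0.00, -0.56, -2.49 and -0.85 for Bgn and -0.05, -0.23, -2.84 and -0.78 for Ogn, the third of each being the set with N. In the fit, Bgn had a log2 fold change of -1.10 (SE 0.61) and Ogn of -1.27 (SE 1.17), with an adjusted p of 1 in edgeR. With N left out they were -0.39 and -0.15. Fn1 was at -0.73 (SE 0.79) with N and 0.51 without it. Dcn was at -0.47 (SE 0.68), Pdgfrb at -0.51 (SE 0.34), Postn at 0.22 (SE 0.34) and Igf2 at 0.12 (SE 0.43).

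**Figure D5:**
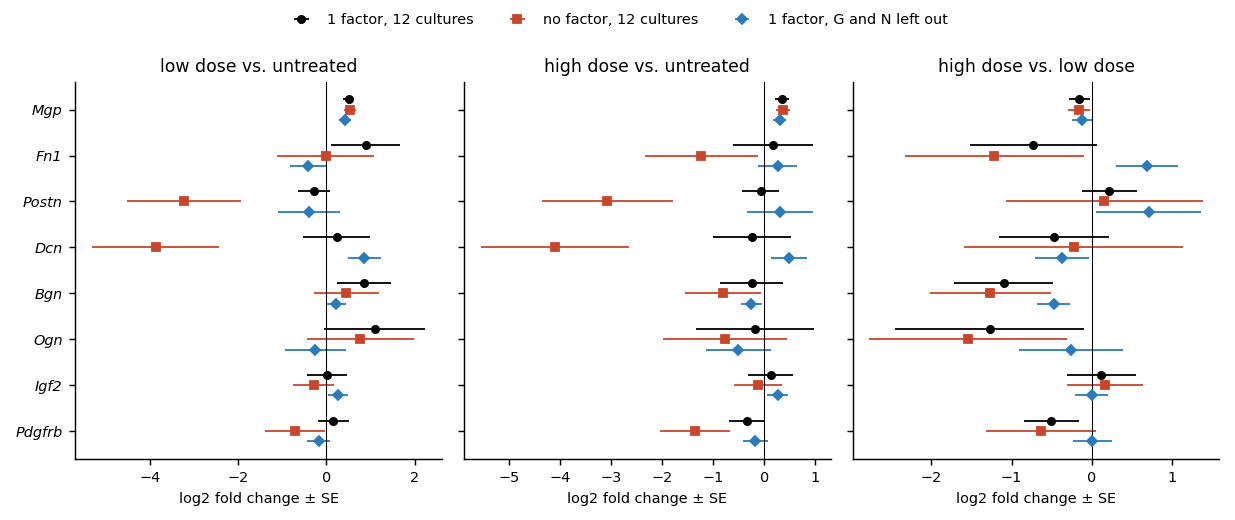
Log2 fold change with its SE for the 8 genes tested, in the fit with 1 factor over 12 cultures (black circles), with no factor (red squares) and with 1 factor and G and N left out (blue diamonds). The 3 fits give Mgp nearly the same value in each comparison, and give Dcn values from -4.10 to 0.49 for high dose vs. untreated.

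Genes that act with these proteins were followed through fixed lists, and no list held a called gene. Of the 8 other small leucine-rich proteoglycans in the table, 3 were tested, and all 3 were highest in N, as 4.42% of all genes were. Fmod, fibromodulin, was at 91.3 CPM in G and 106 CPM in N against 1.996 to 25.1 CPM in the other 10, and Prelp was at 69.9 and 80.2 CPM against 7.57 to 37.5 CPM. Omd, the neighbour of Ogn in the RefSeq gene order, was at 14.9 CPM in N and 3.37 CPM in G, within the 2.51 to 6.33 CPM of the others. Omd had a log2 fold change of 1.11 for low dose vs. untreated and -1.12 for high vs. low dose, each with an unadjusted p under 0.05 and an adjusted p of 1 in edgeR. Aspn, next to Omd, had at most 4 counts in any culture.

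The IGF axis had 13 of 14 genes tested, with medians of 0.04, 0.03 and 0.02 in the 3 comparisons. Igfbp4, an IGF-binding protein, was at 804 CPM in N and 135 CPM in G against 29.6 to 133 CPM in the other 10. Igfbp2 had the opposite order, with 645 CPM in G and 197 CPM in N, the latter inside the 138 to 452 CPM of the others. Igf2r, which takes up IGF2, was at 342 CPM in G and 225 CPM in N, above their highest of 210 CPM, and Igfbp7 was inside their range in both. The PDGF axis, 4 ligands and the receptor Pdgfra, had medians of 0.04, -0.06 and -0.03. Pdgfra was at 335 CPM in G and 166 CPM in N against 93.3 to 172 CPM, and Pdgfb, a ligand of Pdgfrb, was at 13.2 and 14.7 CPM, inside the 12.4 to 17.4 CPM of the others.

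Receptors for fibronectin and periostin numbered 9 tested, with medians of -0.04, -0.09 and -0.06. Of the 9, 7 were highest in G, as 27.7% of all genes tested were. Itgb1, the integrin β1 chain, was at 867 CPM in G and 442 CPM in N against 311 to 388 CPM. Sdc4, a fibronectin-binding syndecan, was at 184 CPM in G and 70.7 CPM in N, Sdc2 at 117 and 91.2 CPM and Itgb5 at 122 and 137 CPM. Of 12 genes of the TGF-β axis, 6 were highest in G (27.7% of all genes) and 3 in N (4.42%), with medians of 0.01, -0.05 and -0.09. The ligand Tgfb2 was at 54.9 CPM in G and 55.3 CPM in N, inside the 29.4 to 70.4 CPM of the others. Tgfbr1 was at 134 CPM in G and 53.9 CPM in N against 28.8 to 56.4 CPM, and Tgfbr3 at 90.6 and 39.8 CPM against 32.2 to 80.6 CPM. For both, G was above the range of the others and N inside it.

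The bone morphogenetic protein and vitamin K axis of Mgp had 12 of 13 genes tested, with medians of -0.04, -0.16 and -0.14. Gas6, another vitamin K-dependent protein, was at 1316 CPM in G and 1534 CPM in N against 337 to 823 CPM in the other 10, so it was above them in the culture where Mgp was lowest. Spp1 was at 378 CPM in G and 119 CPM in N, the latter inside the 49.4 to 244 CPM of the others. The receptors Bmpr1a and Bmpr2 were inside the range of the other cultures in both. Bglap, osteocalcin, had at most 7 counts.

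The cell type lists had no called gene either. Their median log2 fold changes for low dose and high dose vs. untreated were 0.41 and 0.55 for neuron, -0.22 and -0.53 for astrocyte, -0.13 and 0.07 for OPC, 0.06 and 0.12 for oligodendrocyte, and 0.93 and 0.95 for microglia markers. They were 0.02 and -0.38 for fibroblast identity, -0.20 and -0.44 for leptomeningeal, -0.02 and -0.16 for mural cell and 0.39 and 0.19 for endothelial genes. S100a4 had log2 fold changes of 0.60 and 0.59 for low and high dose vs. untreated, Mfap4 one of -2.07 for high vs. low dose, and the neuron marker Stmn2 one of 0.56 for high dose vs. untreated. Each had an unadjusted p under 0.05 and an adjusted p of 1 in edgeR. The part of shifts in cell types in the level of Mgp was not tested.

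By Pearson r of log2(CPM + 1), the genes most like the mean of the 9 standardised genes over 12 cultures were Gng11, A3galt2, Ptk7, Anxa2, Stard5, Lpar6, Tcirg1, Dhrs3, Map3k3 and Pttg1ip, with r of 0.95 to 0.97. G had the highest mean of the 9 and N the second highest, and these cultures also set that order. Over the 10 cultures without them, the most like were Akip1, Rhbg, Sqrdl, Tmem107, Hspd1, Fmod, Nupr1, Prpf4, Adamts15 and Anxa2, with r of 0.90 to 0.94, so that only Anxa2, a membrane-binding annexin, stood in both lists. The genes most like Mgp alone over 12 cultures were Vstm5, Slc12a8, Hemk1, Nfu1 and Csnk2a2, with r of 0.82 to 0.86. These values describe points that share letter sets, and each list was picked as the highest of 12271 genes.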

How the data were processed

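Per the labels and the methods, the authors aligned reads with STAR to rat build rn6, and featureCounts gave counts per gene. The deposited values are whole-number counts, with no normalization, of 17337 symbols in 12 cultures, and totals of 12059872 to 24813893 per culture set the precision. Strand setting, the version of featureCounts and the RUVseq procedure are not given in the sources used here.

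The genes, lists and tests were chosen with earlier results of these data known. Dcn and Bgn were also displayed by the study from these cultures, so they are not independent evidence. Cultures were grouped by their labelled dose. Counts were filtered with filterByExpr (12271 genes kept), scaled by TMM and fitted with edgeR 4.0.16 in R 4.3.3 (quasi-likelihood test, Benjamini-Hochberg over all genes tested) with 1 RUVs factor from the replicates of each dose, all kept genes as controls. An SE is the log2 fold change over the square root of F. The fit was run on simulated counts that held no outlying culture, letter sets or unwanted factor. That run checks the code and not how the fit does on these data. Nothing states that the cultures of a condition came from separate animals, so p values measure the spread between these cultures only.

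From each of 15 lists, up to 4 genes with the highest mean CPM among those kept were named, and the 10, 10 and 5 genes most like the patterns given. Others were named after their values were seen. One gene that this rule names is not reported here. Symbols and gene order came from RefSeq (assembly GRCr8), not rn6, so no coordinates are given. Alternatives were DESeq2 1.42.0, other scalings, factors and offsets, no filter, a block by letter sets, and leaving out cultures. The gap of the Mgp levels was added after the data were seen.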

Additional observations from a re-analysis of the deposited data

Results flagged for a closer look

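A sample was looked at where its gap to the nearest of the 4 cultures of its condition, divided by the range of the 4, both in log2(CPM + 1), exceeded Dixon's 95% critical value, which chance passes in about 1 of 20 groups. Of the 27 combinations of gene and condition, 4 passed on this scale. Mgp in high dose culture R, at 283 CPM below the 342 to 345 CPM of C, I and O, had a ratio of 0.9492. The other 3 were untreated culture G, with ratios of 0.9352 for Dcn (68.3 CPM), 0.937 for Lum (34.8 CPM) and 0.883 for Pdgfrb (71.9 CPM). These genes were chosen with their level in G known, so the chance rate does not apply to them and the ratios are a description only.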

How the results depend on the processing

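Mgp kept its direction in the 3 dose comparisons under all 21 alternatives, and its gap between the lowest low dose and the highest untreated culture was 17.8 CPM, 15.95 with DESeq2 size factors and 21.3 without TMM. Bgn kept its direction in all 21 for low dose vs. untreated and for high vs. low dose, and Ogn in all 21 for high vs. low dose. The other directions turned under at least 1 alternative, and the cause was not tested. The letters were not stated to pair cultures, so the replicate block by letter sets is an alternative only.

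For low dose vs. untreated, Dcn, Fn1, Igf2 and Pdgfrb turned to -3.87, -0.016, -0.29 and -0.72 with no factor and to -1.56, -0.29, -0.17 and -0.49 with the block. Fn1, Ogn and Pdgfrb turned to -0.39, -0.13 and -0.17 with no factor, and to -0.42, -0.25 and -0.18 with 1 factor, G and N left out in both. For high dose vs. untreated, Fn1 and Igf2 turned to -1.23 and -0.13 with no factor and to -0.67 and -0.037 with the block. Dcn and Postn turned to 0.46 and 0.30 with no factor and 0.49 and 0.31 with 1 factor, G and N left out. With the block and G and N left out, Dcn, Ogn, Pdgfrb and Postn turned to 0.57, 0.17, 0.013 and 0.22, and 1 of the 8 genes was called, Fn1. For high vs. low dose with G and N left out, Fn1 turned to 0.57 with the block, Fn1 and Pdgfrb to 0.71 and 0.036 with no factor, and Fn1, Igf2 and Pdgfrb to 0.68, -0.0056 and 0.0029 with 1 factor.

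Leaving out 1 culture at a time called none of the 8 genes. Low dose vs. untreated then ranged from -0.86 to 0.80 for Dcn, -0.46 to 1.32 for Fn1, -0.41 to 0.49 for Igf2, -0.16 to 1.47 for Ogn, -0.24 to 0.44 for Pdgfrb and -1.03 to 0.11 for Postn. High dose vs. untreated ranged from -0.77 to 0.087 for Bgn, -1.35 to 0.51 for Dcn, -0.32 to 0.42 for Fn1, -0.26 to 0.55 for Igf2, -1.27 to 0.28 for Ogn and -0.73 to 0.28 for Postn. High vs. low dose ranged from -0.82 to 0.21 for Dcn, -1.15 to 0.51 for Fn1, -0.094 to 0.46 for Igf2 and -0.012 to 0.48 for Postn. The median of the 8 ranged from -0.05 to 0.56, -0.40 to 0.23 and -0.71 to -0.11. An offset of 0.1 raised the log2 difference of G from 5.15 to 6.02 for Dcn and from 4.80 to 6.51 for Lum. Dcn had 9 to 33 counts in each culture outside G and Lum 2 to 7, which limits their precision. For low dose vs. untreated with G and N left out, Dcn was at 1.06 with the block and 0.86 with 1 factor, with adjusted p of 0.951 and 1 in edgeR.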
